A study of Mus musculus with 6 samples.

Results

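A group of 9 genes of the renin-angiotensin system and of the trimming of vasoactive peptides was described in endothelial cells of mouse skin: Ace, Agt, Agtr1a, Mme, Enpep, Anpep, Cpm, Prcp and Scpep1. They are 9 of the 20018 gene symbols that the array's probes could be given. They were selected from a list of enzymes that process or inactivate vasoactive peptides, apelin among them, together with angiotensin genes, and that choice was made with the difference between knockout and wild-type arrays known. Their own differences are therefore a description, and no p-value is given for any of them. RNA was measured on 6 one-colour arrays, from 3 samples of APJ knockout cells (KO) and 3 samples of wild-type cells (WT), where APJ is the apelin receptor encoded by Aplnr. Both groups were C57Bl/6J, and the cells were sorted by flow cytometry and received no treatment after the sort. The labels used here give neither the knockout allele nor the age, the number of animals behind a sample or the surface markers of the sort, while the scanner files' names carry an embryonic stage. Differences thus describe these 6 samples only, and the SDs and SEs reflect the spread between these samples.

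Angiotensinogen is cut by renin to angiotensin I, which angiotensin-converting enzyme turns into angiotensin II, the ligand of the type 1 receptor. A set of further peptidases then shortens angiotensins, kinins and apelin from either end: aminopeptidases from the front, carboxypeptidases from the back, and neprilysin within the chain. Many of these enzymes sit on the surface of endothelial and other cells and some work in lysosomes, and together they limit how long a vasoactive peptide lasts beside the cell that senses it.

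Scpep1 and Cpm were higher in APJ knockout cells and past the threshold used across the array. Prcp had lower readings on all 3 knockout arrays but did not pass it, and Ace, Agt and Anpep had knockout and wild-type arrays that overlapped. Agtr1a, Mme and Enpep were not well above background on any of the 6 arrays. Levels are log2 signals relative to the 75th percentile of the same array, and differences were taken as knockout minus wild-type mean, each with its standard error (SE) from the linear model. The upstream sequences of the 3 tested genes whose groups did not overlap are shown so that the 2 genes higher and the 1 lower in knockout cells can be set side by side. They are RefSeq windows of the GRCm38.p6 build, 250 bases before to 50 after the annotated start, written 5′ to 3′ on the gene's strand, with GC boxes (GGGCGG, or its reverse complement CCGCCC) in capitals. The Scpep1 window is chr11:88955393-88955692 on the minus strand, the Cpm window is chr10:117629250-117629549 on the plus strand, and the Prcp window is chr7:92875003-92875302 on the plus strand.
Scpep1: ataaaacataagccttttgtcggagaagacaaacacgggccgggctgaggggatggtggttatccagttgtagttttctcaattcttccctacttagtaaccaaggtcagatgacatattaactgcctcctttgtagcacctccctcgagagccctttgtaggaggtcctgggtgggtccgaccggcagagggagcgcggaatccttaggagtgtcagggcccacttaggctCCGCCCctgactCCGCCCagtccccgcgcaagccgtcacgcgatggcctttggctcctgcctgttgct
Cpm: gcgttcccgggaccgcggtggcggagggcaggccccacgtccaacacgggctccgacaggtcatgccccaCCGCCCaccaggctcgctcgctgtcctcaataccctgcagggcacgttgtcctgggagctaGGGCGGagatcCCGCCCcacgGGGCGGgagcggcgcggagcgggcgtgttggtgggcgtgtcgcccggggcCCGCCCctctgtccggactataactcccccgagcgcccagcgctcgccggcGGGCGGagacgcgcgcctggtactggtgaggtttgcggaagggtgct
Prcp: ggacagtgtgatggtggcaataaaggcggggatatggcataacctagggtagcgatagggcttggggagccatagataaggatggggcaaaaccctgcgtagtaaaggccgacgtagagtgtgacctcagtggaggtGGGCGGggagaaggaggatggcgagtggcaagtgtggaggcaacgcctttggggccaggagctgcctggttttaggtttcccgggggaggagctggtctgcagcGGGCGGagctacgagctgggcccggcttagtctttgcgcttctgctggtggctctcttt

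The Cpm window was 73.7% G and C and held 6 GC boxes. The Scpep1 window was 56.3% G and C and held 2, with first bases 18 and 6 bases before the start site. The Prcp window was 59.7% G and C and also held 2. Over 32851 promoter windows of the same length, the median was 52.7% G and C, 35.7% held at least 1 GC box and 10.7% held 3 or more. None of the 3 windows held the CCAAT box on either strand, which 37.4% of all windows did, nor TATAAA (13.6%), the E-box CACGTG (7.15%) or the ETS-type core CCGGAA (14.9%). Overlapping matches were each counted, and a match is a description of letters, not a site. Across the 11 windows of the 8 genes that had one, TATAAA was found for Agt, Ace and Enpep, and 0 windows held CACGTG or CCGGAA.

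Scpep1 encodes a lysosomal serine carboxypeptidase (probe accession NM_029023, chromosome 11). It read 3.05, 2.68 and 2.46 in APJ knockout replicates 1 to 3, against 1.07, 1.25 and 0.97 in wild-type replicates 1 to 3. All knockout arrays lay above all wild-type arrays, with a gap of 1.21 between the lowest knockout and the highest wild-type array. On the linear scale the processed intensities were 2525, 1653 and 2191 units in knockout cells and 601, 597 and 736 units in wild-type cells. Means were 2.73 ± 0.30 in knockout and 1.10 ± 0.15 in wild-type cells (SD, n = 3 each), a difference of 1.63 ± 0.17 (SE) or 3.10-fold. The arrays came from 2 slides that were also scanned as separate batches, with replicates 1 and 2 of both genotypes on slide 1 and replicate 3 of both on slide 2. The Scpep1 difference was 1.70 within slide 1 and 1.49 within slide 2. It lay between 1.47 and 1.77 over the 13 alternative fits and both slides. In sorted bulk samples, fewer cells of a type and less RNA per cell cannot be told apart, so this level and those below belong to the sorted pool.

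Cpm encodes carboxypeptidase M, a membrane-anchored enzyme that removes C-terminal arginine or lysine from peptides such as kinins (NM_027468, chromosome 10). It read -1.63, -1.83 and -2.15 in APJ knockout replicates 1 to 3, against -3.37, -3.52 and -2.96 in wild-type replicates 1 to 3. The groups were again apart, by 0.81, and both replicates of slide 2 lay nearest to the other group. Processed intensities were 98.5, 73.0 and 90.0 units in knockout cells and 27.7, 21.8 and 48.5 units in wild-type cells, so the probe was dim but well above background on all 6 arrays. Means were -1.87 ± 0.26 in knockout and -3.28 ± 0.29 in wild-type cells (SD, n = 3 each), a difference of 1.42 ± 0.19 (SE) or 2.67-fold. The size moved with the setting more than that of Scpep1: it was 1.72 within slide 1, 0.81 within slide 2, and 0.68 after a model-based background correction with an offset of 50 and quantile normalization. The knockout arrays lay above wild type on both slides.

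Prcp encodes prolylcarboxypeptidase, a lysosomal enzyme that removes a C-terminal residue that follows a proline, as in angiotensin II (NM_028243, chromosome 7). Its brighter probe read 5.13, 5.32 and 4.92 in APJ knockout replicates 1 to 3, against 5.64, 5.72 and 5.45 in wild-type replicates 1 to 3. The knockout arrays all lay below the wild-type arrays, by a gap of 0.14. Means were 5.12 ± 0.20 in knockout and 5.60 ± 0.14 in wild-type cells (SD, n = 3 each), a difference of -0.48 ± 0.13 (SE), with knockout cells at 71.6% of wild type. It did not pass the threshold in the fit to all 6 arrays or in any of the 13 alternatives. The second Prcp probe differed by -0.41, with readings of -0.24, -0.18 and -0.93 in knockout cells and 0.25, 0.09 and -0.44 in wild-type cells. On that probe the groups overlapped across slides, while within each slide the knockout arrays were lower.

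**Figure D1:**
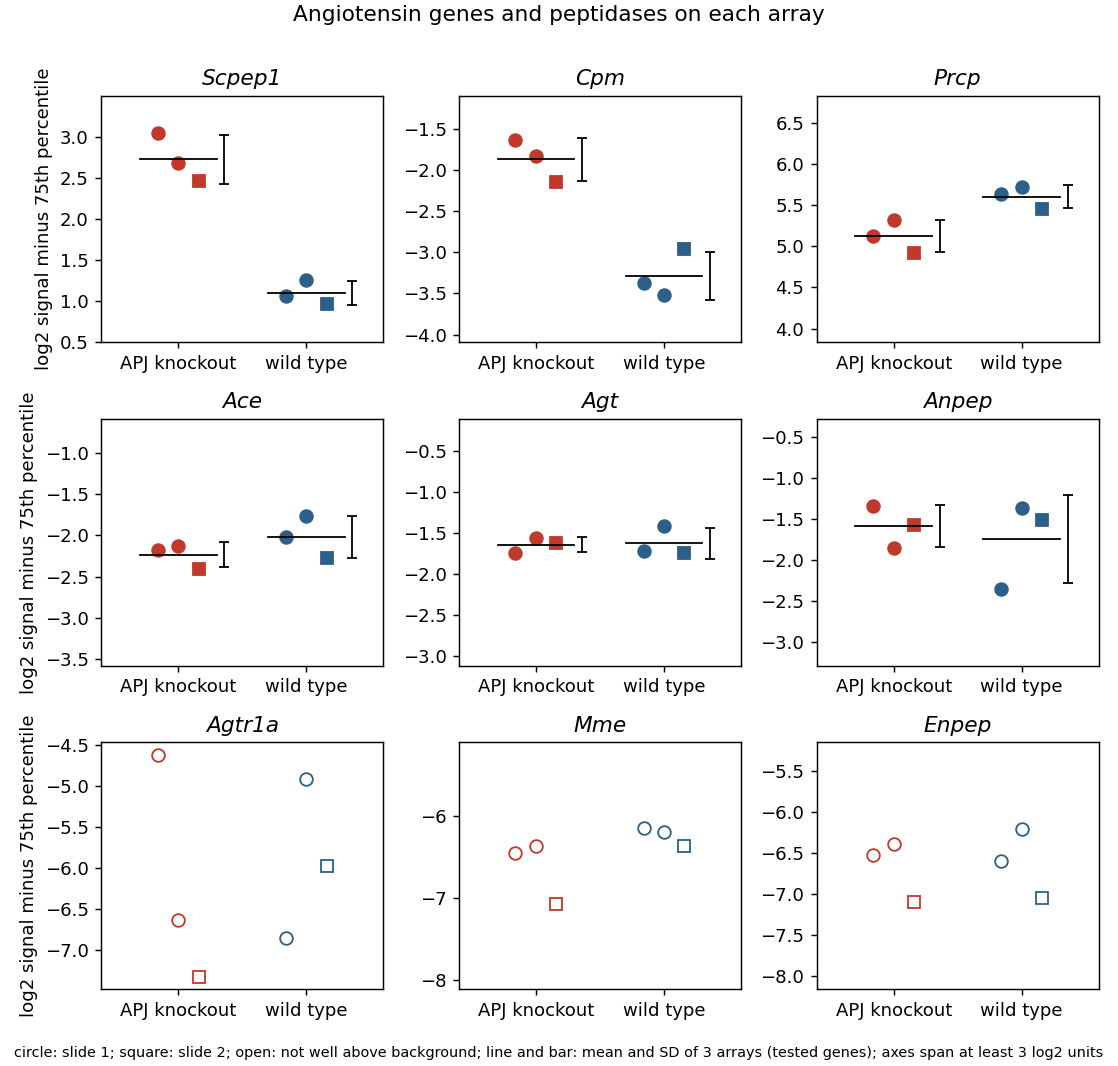
Level of each of the 9 genes on every array (y axis: log2 signal relative to the array's 75th percentile, on a separate scale in each panel), with APJ knockout left of wild type. Points are arrays (circles slide 1, squares slide 2, open where not well above background), Mme and Prcp are shown by their brighter probe, and the line and bar give mean and SD of 3 arrays for tested genes. Scpep1 and Cpm knockout arrays lie above all wild-type arrays, Prcp knockout arrays lie below them, and Agtr1a, Mme and Enpep are not well above background anywhere.

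Ace, angiotensin-converting enzyme, which makes angiotensin II and degrades bradykinin (NM_009598, chromosome 11), read -2.17, -2.13 and -2.41 in APJ knockout cells and -2.02, -1.76 and -2.27 in wild-type cells. The difference was -0.22 ± 0.15 (SE), and the groups overlapped across slides, while within each slide the knockout arrays were lower, with differences of -0.26 on slide 1 and -0.13 on slide 2. Agt, angiotensinogen, the precursor (NM_007428, chromosome 8), read -1.74, -1.56 and -1.62 in knockout cells and -1.72, -1.41 and -1.75 in wild-type cells, a difference of -0.02 ± 0.12 (SE). Its sign differed between the slides, at -0.09 within slide 1 and 0.13 within slide 2. Anpep, aminopeptidase N, which trims angiotensin III (NM_008486, chromosome 7), read -1.34, -1.85 and -1.57 in knockout cells and -2.35, -1.36 and -1.52 in wild-type cells. Wild-type replicate 1 was the lowest of the 6. The Anpep difference was 0.16 ± 0.28 (SE), and became -0.15 without that array. For Agt and Anpep the difference was smaller than the SD of either group (0.09 in knockout and 0.18 in wild-type cells for Agt, 0.26 in knockout and 0.53 in wild-type cells for Anpep), and for Ace it lay between the SDs of 0.15 in knockout and 0.26 in wild-type cells.

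Agtr1a, the receptor of angiotensin II (NM_177322, chromosome 13), gave processed intensities between 2.49 and 12.4 units in APJ knockout cells and between 2.49 and 8.32 units in wild-type cells, none called well above background. Mme, neprilysin, which cleaves within apelin, natriuretic peptides and kinins (NM_008604, chromosome 3), lay at 2.96 to 3.49 units in knockout and 3.42 to 4.58 units in wild-type cells on its brighter probe. Enpep, aminopeptidase A, which turns angiotensin II into angiotensin III (NM_007934, chromosome 3), lay at 2.90 to 3.32 units in knockout and 2.84 to 3.38 units in wild-type cells. With neither group well above background on any array, no fold change is given for these 3 genes, and a difference was not measurable here. This leaves 6 of the 9 genes with a measured difference.

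Of the 6 tested genes, 2 passed the threshold of an adjusted p of 0.05 in limma with Benjamini-Hochberg adjustment, both higher in APJ knockout cells. Of the 24245 genes and unnamed probes tested over the whole array, 0.557% passed (135), 0.371% higher (90) and 0.186% lower (45). Since the same contrast chose the genes, nothing is read from that count. With the replicate numbers as a block, 0 of 6 passed, beside 0.0206% (5) of everything tested, and with slide as a block Scpep1 alone passed, beside 1.2% (291). Scpep1 passed in 6 and Cpm in 4 of the 13 alternative fits. With 1 array left out, Scpep1 passed without knockout replicate 3 and Cpm without wild-type replicate 3, and with any other array left out 0 of the 6 passed. In 3 of the 6 genes the groups did not overlap, 2 higher and 1 lower in knockout cells, as in 12.2% of everything tested (6.4% higher, 5.82% lower). The median difference was 0.07 over the 6 genes and -0.02 over everything tested, with 3 above 0 and 3 below. Of everything tested, 1.28% differed by at least 1 log2 unit in size, as Scpep1 and Cpm did.

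**Figure D2:**
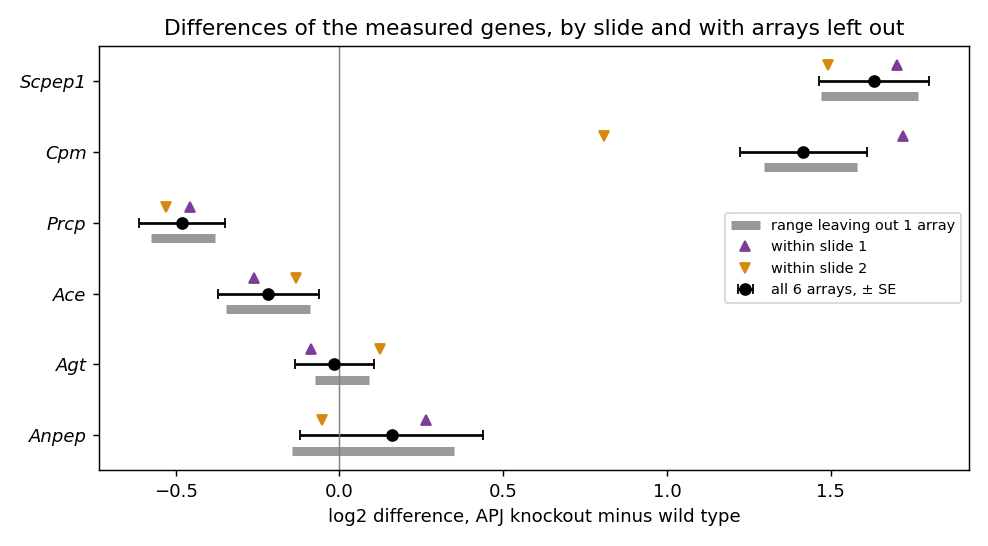
Difference of each tested gene (x axis: log2 difference, APJ knockout minus wild type, with its SE) on all 6 arrays, within each slide (triangles), and as the range with 1 array left out (grey bars). Scpep1 stood at 1.70 and 1.49 and Cpm at 1.72 and 0.81 on slides 1 and 2, while Prcp stood at -0.46 and -0.53.

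Aplnr, the targeted gene (NM_011784, chromosome 2) read 1.90, 1.72 and 2.26 in APJ knockout cells and 3.35, 3.78 and 3.83 in wild-type cells, with groups that did not overlap. The difference was -1.69 ± 0.19 (SE; limma, adjusted p = 0.0238, Benjamini-Hochberg), or 30.9% of wild type, so a signal remained at this probe in knockout cells. The adjusted p was 0.0780 with the replicate block. Of the endothelial markers, 10 of 10 were well above background on all 6 arrays, with summed linear signals, relative to the 75th percentile, of 838 to 911 in knockout and 824 to 907 in wild-type cells. The keratinocyte list (6 of 10 on all 6 arrays) summed to 10.4 to 11.7 in knockout and 10.3 to 37.9 in wild-type cells, where replicates 2 and 3 were high at 17.5 and 37.9. Of its 7 tested genes 0 were above 0, the median difference was -1.28, and 0 passed the threshold. Trp63, which differed by -0.10, made up most of the lower sums, so the sums understate how far the keratins ranged. Krt5 read 82.3, 600 and 3933 units in wild-type replicates 1 to 3, and 304, 136 and 152 units in knockout replicates 1 to 3. The mural list (6 of 10) summed to 3.63 to 4.39 in knockout and 3.41 to 4.38 in wild-type cells. The fibroblast list (6 of 10) summed to 3.33 to 8.11 in knockout and 4.32 to 6.63 in wild-type cells. Of the 8 fibroblast genes tested 2 were above 0, the median difference was -0.38, and 0 passed the threshold. Myh11, Des and Dpt, which mark mural cells and fibroblasts, were well above background on 0 of 6 arrays.

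Lymphatic endothelial and macrophage markers were mostly above 0 in the same comparison as Scpep1 and Cpm. All 8 lymphatic markers were well above background on all 6 arrays, and their summed signal was 156 to 170 in APJ knockout and 132 to 140 in wild-type cells, without overlap, at a median log2 difference of 0.54. All 8 had a positive difference and 0 of 8 passed the threshold. Of the 10 macrophage markers 9 had a probe, and 5 of these were well above background on all 6 arrays. Lyz2, C1qa, C1qc and Adgre1 were so on all 3 knockout arrays but on 1, 2, 2 and 1 of 3 wild-type arrays. These were tested through the knockout group alone, which favours a higher knockout reading. Each of the 9 was well above background on at least 1 array. Their summed linear signal was 10.6 to 11.3 in knockout and 9.91 to 13.2 in wild-type cells, which overlapped. Csf1r and Mrc1, the brightest of the 9, made up most of that sum, with differences of -0.23 and 0.06. The sum thus says little of the dimmer markers. Of the 9, 8 were higher in knockout cells, at a median difference of 1.11, and 0 passed the threshold. The 5 markers well above background on all 6 arrays, C1qb, Csf1r, Aif1, Mrc1 and Ptprc, differed by 0.48, -0.23, 1.11, 0.06 and 0.39. The part of lymphatic cells, macrophages, keratinocytes or fibroblasts in the differences of Scpep1, Cpm and Prcp was not tested.

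Genes that lie beside Scpep1 and Cpm on their chromosomes were read next, taking the 3 nearest tested named genes on each side. Beside Scpep1 on chromosome 11, the differences of Msi2, Akap1, Coil, Trim25 and Dgke were between -0.17 and 0.01. The sixth neighbour, Ccdc182, differed by -0.85 and was not well above background on any knockout array. None of these 6 passed the threshold, and for all 6 the groups overlapped. Beside Cpm on chromosome 10, Cpsf6, Mdm2, Nup107 and Rap1b differed by -0.08 to 0.12, again with overlapping groups. The other 2 neighbours, Lyz1 and Lyz2, lie on 1 side beyond Cpsf6. They encode the lysozymes of Paneth and myeloid cells and are near-identical copies, so whether their probes read them apart is uncertain. Lyz2 read -2.91, -3.70 and -3.25 in APJ knockout cells and -5.26, -5.53 and -4.57 in wild-type cells. Lyz1 read -0.94, -1.56 and -0.61 in knockout cells and -3.22, -3.22 and -2.16 in wild-type cells. Their groups did not overlap, and the differences of 1.83 ± 0.30 and 1.83 ± 0.36 (SE) did not pass the threshold (limma, adjusted p = 0.0714 for Lyz2 and 0.123 for Lyz1). Lyz2, which is also in the macrophage list, was well above background on 1 of 3 wild-type arrays.

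**Figure D3:**
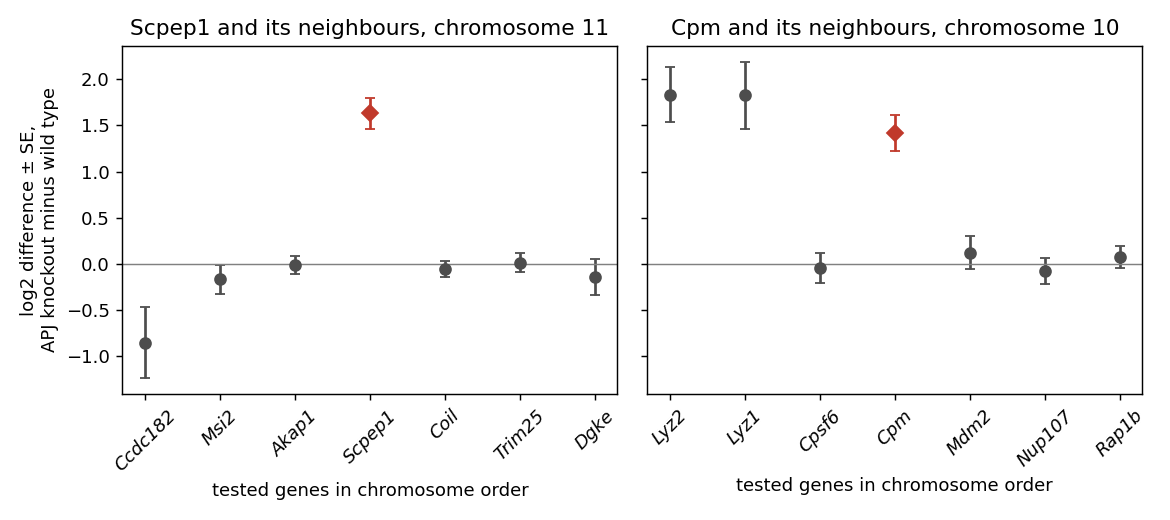
Difference of Scpep1 and Cpm and of the 3 nearest tested named genes on each side, in their order along the chromosome (log2 difference, APJ knockout minus wild type, with its SE). Scpep1 at 1.63 stands among neighbours between -0.85 and 0.01. Around Cpm at 1.42, Cpsf6, Mdm2, Nup107 and Rap1b stand between -0.08 and 0.12, and Lyz1 and Lyz2, beyond Cpsf6, at 1.83.

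The other genes of these pathways were read from the same fit, in 6 lists of 73 genes, of which 72 had a probe and 44 were tested. Over the 5 lists other than the apelin axis, 41 of 69 genes were tested, 1 passed the threshold higher, 0 passed lower, and 8 had an unadjusted p under 0.05 in limma. The share of everything tested at that unadjusted p is not given here, so nothing is read from such counts in any list. Of the 41, 31 lay within 0.3 log2 units of 0, 23 were above and 18 below 0, and the median difference was 0.03.

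Ece1, endothelin-converting enzyme, a membrane metalloprotease related to neprilysin that also cleaves bradykinin (NM_199307, chromosome 4), was the gene that rose. It read 2.48, 2.42 and 2.23 in APJ knockout cells and 0.87, 1.16 and 0.87 in wild-type cells, with no overlap. Means were 2.38 ± 0.13 in knockout and 0.96 ± 0.17 in wild-type cells (SD, n = 3 each). The difference was 1.41 ± 0.12 (SE), and its adjusted p in limma was 0.0142. Within slides 1 and 2 the differences were 1.44 and 1.36. The adjusted p was 0.0739 with the replicate block, and between 0.0338 and 0.0912 when 1 array was left out. The call held without wild-type replicate 3 and without knockout replicate 3 and was lost when any 1 of the other 4 was left out. In its list 6 of 12 genes were tested, with a median difference of 0.02 and 2 at an unadjusted p under 0.05 in limma. Kel, a blood-group metalloprotease of red cells, differed by 0.80 ± 0.48 and Nln, neurolysin, by -0.27 ± 0.10 (SE), and neither passed. Ecel1, Phex and Mep1a were well above background on 0 of 6 arrays. Mmel1, a close relative of neprilysin, which was chosen after its values were seen, read -5.34, -0.91 and -5.01 in knockout cells, well above background on 2 of 3 arrays, and -6.88, -6.48 and -7.30 in wild-type cells, on 0 of 3. All 3 knockout readings lay above the wild-type ones, knockout replicate 2 far above the other 2, and Mmel1 was not tested.

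Among renin-angiotensin genes outside the 9, 6 of 11 were tested, 0 passed the threshold, 1 had an unadjusted p under 0.05 in limma, and the median difference was 0.10. Ren1, renin, which starts the pathway, differed by 0.41 ± 0.16 and Mcpt4 by 0.34 ± 0.80 (SE). Cma1, like Mcpt4 a mast cell chymase, differed by -0.18 ± 0.87 (SE) from 2 knockout arrays. The spot of knockout replicate 1 was marked as an outlier and left out. Slide 1 thus held 1 knockout and 2 wild-type readings of Cma1, which was higher on slide 2 in both genotypes. The Cma1 difference was -0.39 within slide 1 and -0.70 within slide 2. Mcpt4 read -0.36, -0.97 and 1.18 in APJ knockout cells and -1.40, -0.94 and 1.17 in wild-type cells, so that slide 2 was high in both genotypes. Agtr1b, Mas1 and Klk1 were well above background on 0 of 6 arrays. Agtr2, the other angiotensin II receptor, which was chosen after its values were seen, was well above background on 1 of 6 arrays, a knockout array.

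Of the kinin and contact system genes, 3 of 11 were tested, 0 passed, 0 had an unadjusted p under 0.05 in limma, and the median difference was 0.25. Serping1, the inhibitor of the contact system, read 0.52, -2.22 and -2.22 in APJ knockout cells and -2.39, -2.27 and -2.39 in wild-type cells. Its difference of 1.04 ± 0.72 (SE) thus came from knockout replicate 1. Xpnpep2 and Xpnpep1, which remove an N-terminal residue before proline and so cut bradykinin, differed by 0.25 and 0.09. Kng1, Kng2, Bdkrb1, Bdkrb2, F12 and Cpn2 were well above background on 0 of 6 arrays, so the kininogens and both kinin receptors were not measured.

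For aminopeptidases and dipeptidyl peptidases, 15 of 17 were tested, 0 passed, 1 had an unadjusted p under 0.05 in limma, and the median difference was -0.04. The 3 with the largest differences were Fap, a membrane protease that is also in the fibroblast list, at -0.70 ± 0.59 (SE), Dpp4, a membrane dipeptidyl peptidase, at -0.22, and Rnpep, aminopeptidase B, at 0.19. Rnpep had groups that did not overlap, at 4.09, 4.15 and 4.08 in APJ knockout cells and 3.91, 3.95 and 3.88 in wild-type cells, and its adjusted p was 0.607.

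For the carboxypeptidases other than Cpm, Prcp and Scpep1, 11 of 18 were tested, 0 passed, 4 had an unadjusted p under 0.05 in limma, and the median difference was 0.08. Cpa1, a pancreas-type metallocarboxypeptidase, read 1.55, 1.48 and 1.59 in APJ knockout cells and 0.48, 0.96 and 0.89 in wild-type cells, a difference of 0.76 ± 0.14 (SE) whose groups did not overlap, at an adjusted p of 0.107. Cpxm1, a carboxypeptidase-like protein, differed by -0.45 ± 0.16 and Prss16 by 0.44 ± 0.71 (SE). Cpa3, the mast cell carboxypeptidase, chosen after its values were seen, read 3.46, 3.44 and 5.15 in knockout cells and 3.46, 3.28 and 5.47 in wild-type cells, again high on slide 2 in both genotypes. The whole mast cell list (4 of 7 on all 6 arrays) summed to 18.1 to 55.4 in knockout cells, without Cma1 on replicate 1, and to 19.1 to 70.4 in wild-type cells. On the apelin axis, Apln, the ligand gene, differed by 0.24 ± 0.12 (SE; limma, adjusted p = 0.778) and Furin, which processes precursors, by 0.04. Apela had no probe that carried its symbol.

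**Figure D4:**
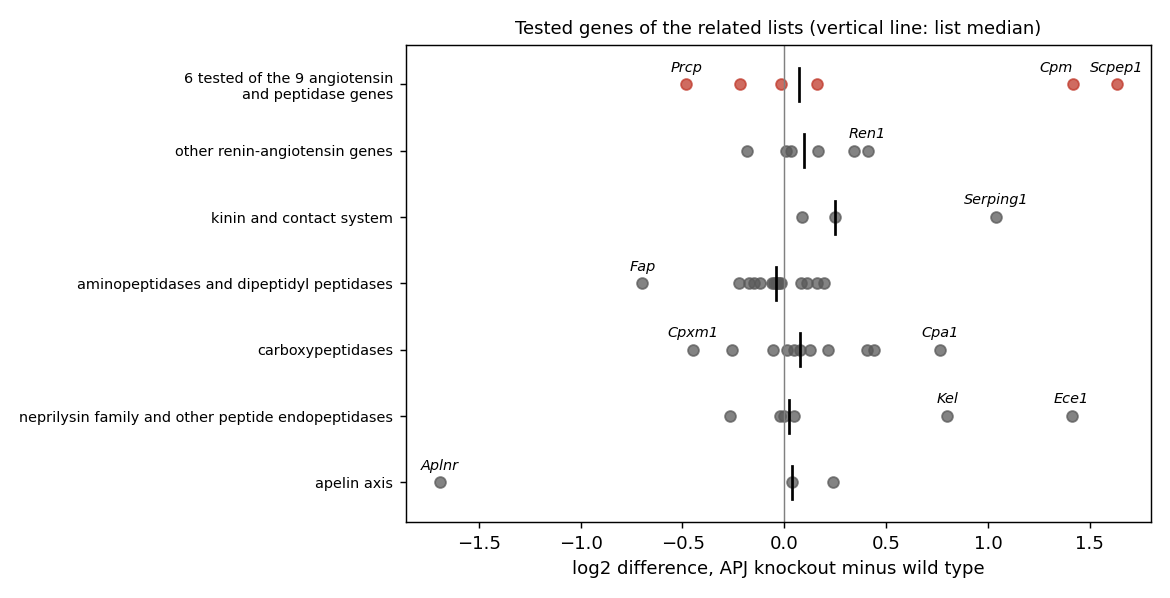
Difference of each tested gene in the 6 related lists and in the 6 tested genes of the 9 (x axis: log2 difference, APJ knockout minus wild type; 1 point a gene, vertical line at the list's median). Ece1 at 1.41 and Aplnr at -1.69 are the 2 listed genes that passed the threshold.

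The named genes most like each measured gene were found by the root mean square distance of gene-centred log2 values over the 6 arrays, among 12987 named genes. The distance is a description. For Scpep1 they were Scn3a at 0.098, Ece1 at 0.16 and Aspg at 0.16 log2 units. For Cpm they were Gda, Ramp3 and Kcne3 at 0.20, 0.21 and 0.21. For Prcp they were Laptm4b and Clic5 at 0.051 and 0.055, with Pcdhb22 at 0.055. The genes closest to Agt, with a total spread of 0.33 log2 units over the arrays, were Doc2a, Prss53 and Cirbp, and those closest to Ace were Kif19a, Impg1 and Msi2. Anpep, with wild-type replicate 1 low, was closest to Lrrc29, Neat1 and Me3. Scpep1 and Cpm differ in how far their arrays range, 2.08 and 1.89 log2 units, from Prcp at 0.80.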

How the data were processed

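RNA of 6 samples was hybridised to one-colour Agilent arrays, 3 with APJ knockout and 3 with wild-type cells, grouped by the genotype label and numbered by title. The deposited scanner files hold the Cy3 intensity of each spot, background-subtracted and not normalised between arrays, as the file headers of Agilent Feature Extraction 10.7.3.1 record. In the value table the authors deposited, that intensity is multiplied by 1 constant per array, 2.29 to 3.69, and it served as an alternative. For each array, 59305 non-control spots of 55681 probes were used, with 126 to 179 outlier spots left out and 0 saturated; 50.3% to 58.0% of probes were well above background, and the 75th percentile intensity lay between 250.4 and 398.4 units. The number of arrays limits the precision.

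The deposited processed intensity was expressed as log2, less the 75th percentile of its array. A probe was tested if well above background on every array of at least 1 group, with the brightest probe for each symbol. Symbols came from RefSeq accessions, which named 47.4% of probes. The KO minus WT fit used limma 3.58.1 under R 4.3.3 (lmFit, eBayes; two-sided; Benjamini-Hochberg over everything tested; threshold 0.05) and tested on simulated data. With 3 arrays a group, an exact test over samples cannot go below 0.1. The members and the gene lists were chosen with earlier results of these data known. Named genes were the 9 genes, Aplnr, in each list those past the threshold and the 3 largest differences, 3 tested neighbours on each side, and the 3 nearest by root mean square distance. The values of a listed gene are not reported here, although counts include it.

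Replicate numbers are shared by the groups. Deviations from the group means of same-numbered arrays correlated at 0.2327, 0.1523 and 0.6493, all over 0.1, and numbers 1 and 2 are slide 1, number 3 slide 2. The other pairs within slide 1 correlated more closely, KO2 with WT1 at 0.3577 and KO1 with WT2 at 0.2789. The fit behind the printed values has no block, and blocked values are given beside the results whose call they change. Alternatives were quantile normalization, normexp, the authors' table, no dim filter, slide and replicate blocks, every probe on its own, and leaving out each array. The planned normexp on mean signals was replaced, after seeing the data, by median signals, since the files used hold no mean-signal column.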

Additional observations from a re-analysis of the deposited data

How the results depend on the processing

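Scpep1, Cpm, Prcp, Ace and Aplnr kept their direction under all alternatives run and on both slides, while Agt and Anpep crossed 0 within their spread. The call count of 135 became 3 with no filter on dim probes (49286 tested), 5 with the replicate block and 291 with slide as a block, and 12 to 63 with 1 array left out. Of the listed genes outside the 9, 2 passed in the main setting, 0 with no filter or with the replicate block, and 0 to 2 with 1 array left out. Of the 6 tested genes, 2 passed in the main setting, 1 with the authors' table or slide as a block, 0 with no filter or the replicate block, and 0 to 1 with 1 array left out. The Aplnr difference was -1.69 in both settings that lost its call, no filter (adjusted p = 0.188) and the replicate block (0.0780), and -1.84 to -1.57 with 1 array left out, where the call held without knockout replicate 3 only. Cpm was 0.68 after normexp and quantile normalization, 1.72 within slide 1 and 0.81 within slide 2. Calls numbered 180 after normexp on median signals with quantile normalization, 143 after quantile normalization of the processed signal, 125 with the authors' table and 197 with every probe on its own. The causes were not tested. Probes near background limit what can be said of Agtr1a, Mme and Enpep.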
